A study of Mus musculus with 5 samples.

Results

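A group of 8 genes that set, copy or protect DNA methylation was followed in undifferentiated mouse embryonic stem cells: Dnmt1, Uhrf1, Dnmt3a, Dnmt3b, Dnmt3l, Zfp57, Trim28 and Dppa3. They were chosen by name, and all 8 were measured among the 19938 genes that had a feature (a set of probes summarised as 1 value) annotated to a single symbol. Where a gene had several features, the brightest one by its mean over all arrays was taken. Of the 8 genes, 7 had 1 feature and Dppa3 had 2. The cells were homozygous for a mutant allele of Mkl2 (Mkl2-/-, 3 arrays) or wild type (2 arrays), all labelled strain C57BL/6, and each array came from a separate culture. Cells of both genotypes were grown with serum and leukaemia inhibitory factor on feeder fibroblasts, which were then removed by letting them attach to a dish. The sources used here give neither the construction of the mutant allele nor the number of cell lines behind each genotype, so genotype and cell line cannot be told apart, and p-values measure the spread between cultures. Mkl2, listed under its current symbol Mrtfb, encodes a partner protein of serum response factor, and the study asked how its loss affects TGF-beta signalling.

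In mammalian cells a methyl group is placed on cytosine in CpG dinucleotides. DNMT3A and DNMT3B add it to unmethylated DNA, DNMT3L has no catalytic activity of its own and acts as their cofactor, and DNMT1, guided by UHRF1, copies the pattern onto the new strand after replication. At imprinted control regions, ZFP57 binds the methylated allele and recruits TRIM28, which brings in silencing enzymes, so that the parental mark outlasts the wave of demethylation in the early embryo. DPPA3 protects methylation in the zygote and can displace UHRF1 from chromatin. Cultured embryonic stem cells express both the de novo and the maintenance enzymes.

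Of the 8 genes, Dnmt3l and Zfp57 rose in Mkl2-/- cells, none fell, and 6 did not pass the test. Dnmt3l rose 1.92-fold and Zfp57 1.21-fold, while Dnmt1, Dnmt3a, Dnmt3b, Uhrf1, Trim28 and Dppa3 differed by between -0.06 and 0.13 on the log2 scale. The test was limma with Benjamini-Hochberg adjustment over all 19938 genes at an adjusted p of 0.05, and every difference is Mkl2-/- minus wild type on the log2 scale. Over all genes 9.27% passed, 2.99% of all genes as higher and 6.28% as lower. At an unadjusted p under 0.05, 4 of the 8 genes were higher (Dnmt1 and Dnmt3a besides) and 0 lower, against 23% of all genes in either direction, 10.2% as higher and 12.8% as lower. The genes were chosen with earlier results of these data known, so these counts are a description. The arrays of both genotypes did not overlap in 5 of the 8 genes, all of them higher in Mkl2-/-, and 33.6% of all genes had no overlap in either direction (16.9% as higher). The median difference of the 8 genes was 0.07, and that of all genes was 0.02.

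**Figure D1:**
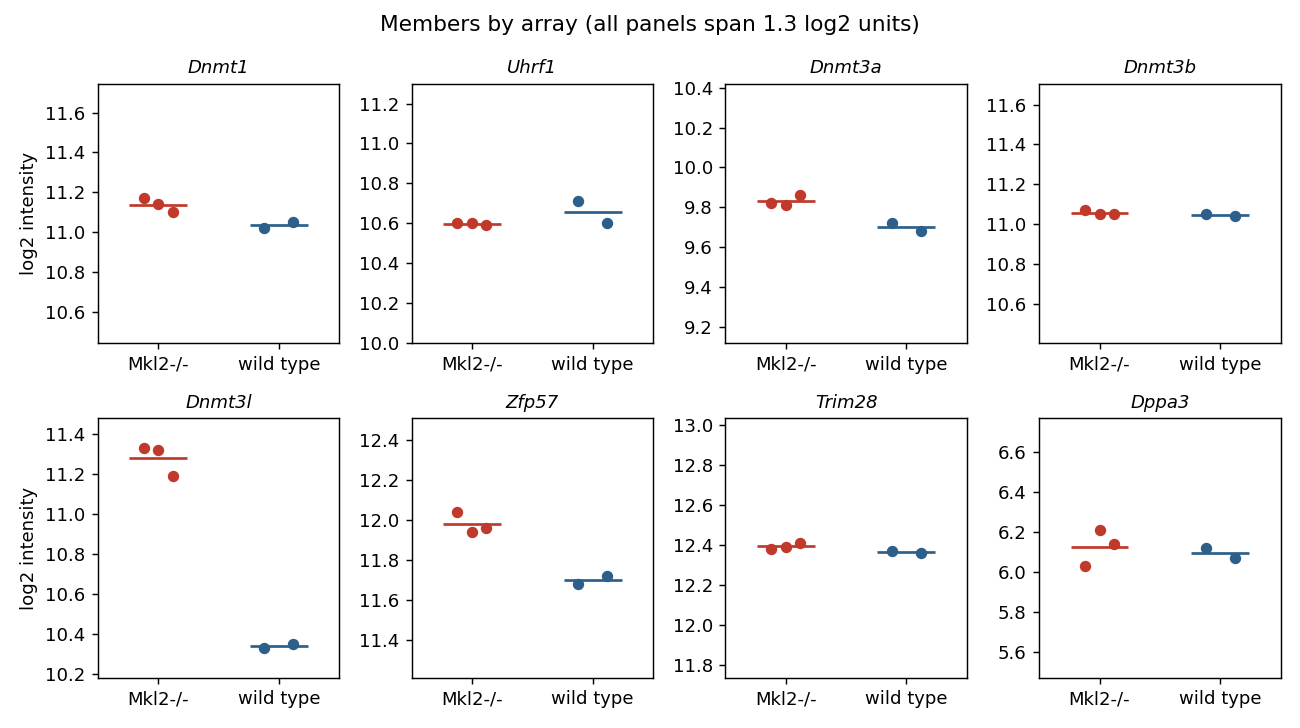
Log2 intensity of the 8 genes on each array, with Mkl2-/- (red, 3 arrays) left of wild type (blue, 2 arrays); bars are group means and every panel spans the same height, so steps can be compared but levels cannot be compared between genes. Dnmt3l shows the widest step, with 11.19 to 11.33 in Mkl2-/- and 10.33 and 10.35 in wild type, and Zfp57 the next.

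Promoter windows of the genes that rose, and of Dnmt3b as a de novo enzyme gene that did not pass the test, are shown because their CpG content differs. Each window runs from 250 bases before to 50 after a transcript start, from RefSeq on build GRCm38.p6, and CpG dinucleotides are in capitals. The window of the 5′-most listed start is printed for each gene.
Dnmt3l, chr10:78042037-78042336, plus strand: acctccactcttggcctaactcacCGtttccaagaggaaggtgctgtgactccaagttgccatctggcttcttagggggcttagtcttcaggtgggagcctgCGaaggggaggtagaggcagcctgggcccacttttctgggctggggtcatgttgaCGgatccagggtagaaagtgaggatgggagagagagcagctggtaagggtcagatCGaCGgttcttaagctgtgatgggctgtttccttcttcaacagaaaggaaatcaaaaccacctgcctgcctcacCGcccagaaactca
Zfp57, chr17:37000913-37001212, plus strand: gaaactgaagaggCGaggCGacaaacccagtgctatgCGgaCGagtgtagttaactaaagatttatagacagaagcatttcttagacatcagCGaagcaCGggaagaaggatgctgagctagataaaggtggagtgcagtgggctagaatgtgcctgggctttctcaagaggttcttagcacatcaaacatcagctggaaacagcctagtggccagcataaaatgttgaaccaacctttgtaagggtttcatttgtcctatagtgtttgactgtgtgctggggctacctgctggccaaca
Dnmt3b, chr2:153649199-153649498, plus strand: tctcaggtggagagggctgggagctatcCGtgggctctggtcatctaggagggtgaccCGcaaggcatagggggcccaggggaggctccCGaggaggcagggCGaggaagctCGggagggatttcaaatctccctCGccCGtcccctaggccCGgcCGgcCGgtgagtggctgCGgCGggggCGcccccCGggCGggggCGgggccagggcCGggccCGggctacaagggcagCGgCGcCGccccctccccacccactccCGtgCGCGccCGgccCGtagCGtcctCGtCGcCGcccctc

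The printed windows of Dnmt3l and Zfp57 hold 6 CpG each, and that of Dnmt3b holds 30. The other 2 listed starts of Dnmt3l have 4 and 3 CpG, and those of Zfp57 have 9 and 4. Over all 32851 listed windows the median was 7 and the lower quartile 3. All 6 windows of the genes that rose hold 3 to 9 CpG, from that quartile to just above the median. Dnmt1, which did not pass the test, also had a window below that range. The 6 windows are alternative starts of only 2 genes, grouped after the test was run. Which start these cells use was not measured. Windows were found for 7 of the 8 genes, 16 in all. Trim28 has 1 window with 23 CpG, Uhrf1 windows with 12 and 33, Dnmt3a windows with 46, 47 and 18, and Dnmt1 windows with 2, 12 and 33. The CArG box, the binding motif of serum response factor, was searched in its consensus form (its reverse complement has the same form) and was in 0 of the 16 windows, against 1.63% of all windows. The hexamer TGCCGC, in which ZFP57 recognises a methylated CpG, was searched on both strands. It was in 3 of the 16 windows (both overlapping windows of Dnmt3a and that of Trim28), against 11.6% of all windows. These counts describe letters in a short window and say nothing about binding.

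Dnmt1, the maintenance methyltransferase gene, read 11.17, 11.14 and 11.10 in Mkl2-/- and 11.02 and 11.05 in wild type. All 3 Mkl2-/- arrays lay above both wild-type arrays, by at least 0.05. The difference of 0.10 ± 0.027 (SE, n = 3 and 2; 1.07-fold) did not pass (limma adjusted p = 0.12), and its 95% interval ran from 1.02-fold to 1.13-fold. Uhrf1, whose protein binds hemimethylated CpG and brings DNMT1 to it, read 10.60, 10.60 and 10.59 in Mkl2-/- and 10.71 and 10.60 in wild type. Only wild-type replicate 1 stood apart from the other 4 arrays. Its difference was -0.06 ± 0.037 (limma adjusted p = 0.399), and the 95% interval ran from 0.893-fold to 1.03-fold. The size of the Uhrf1 difference hangs on that array: without it the difference was -0.003.

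Dnmt3a, one of the de novo methyltransferase genes, read 9.82, 9.81 and 9.86 in Mkl2-/- and 9.72 and 9.68 in wild type. The groups did not overlap. Its difference of 0.13 ± 0.024 (1.09-fold, 95% interval 1.05 to 1.15) did not pass (limma adjusted p = 0.0571), but it passed when only genes above the background level (adjusted p = 0.0396) or above the median gene (adjusted p = 0.0315) were tested. Dnmt3b, the other de novo enzyme gene, read 11.07, 11.05 and 11.05 in Mkl2-/- and 11.05 and 11.04 in wild type. The arrays overlapped at 11.05. Its difference was 0.01 ± 0.012 (limma adjusted p = 0.571), with a 95% interval from 0.984-fold to 1.03-fold. A noncoding antisense gene, Dnmt3aos, which lies at the Dnmt3a locus and has a feature of its own, read 8.01, 7.77 and 7.91 in Mkl2-/- and 7.86 and 7.74 in wild type (0.10, limma adjusted p = 0.509).

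Dnmt3l, the gene of the catalytically inactive cofactor, read 11.33, 11.32 and 11.19 in Mkl2-/- and 10.33 and 10.35 in wild type. The lowest Mkl2-/- array, replicate 3, was still 0.84 above the higher wild-type array. Dnmt3l rose by 0.94 ± 0.052 on the log2 scale (SE, n = 3 and 2; limma adjusted p = 0.00798), or 1.92-fold with a 95% interval of 1.73 to 2.12. In size, 164 of the 19938 genes (0.823%) had a larger difference. The call depended on single arrays. Dnmt3l still passed without Mkl2-/- replicate 1 or 3, and did not without Mkl2-/- replicate 2 (adjusted p = 0.0504), wild-type replicate 1 (adjusted p = 0.0515) or wild-type replicate 2 (adjusted p = 0.0689). With 1 wild-type array left, the spread comes from the Mkl2-/- arrays alone and the lone array is assumed to vary like them. Without wild-type replicate 2, 0 genes passed in all (smallest adjusted p = 0.0583; 4411 genes at an unadjusted p under 0.05), so that fit could keep no call. The size of the rise stayed between 0.91 and 0.98 in these fits.

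**Figure D2:**
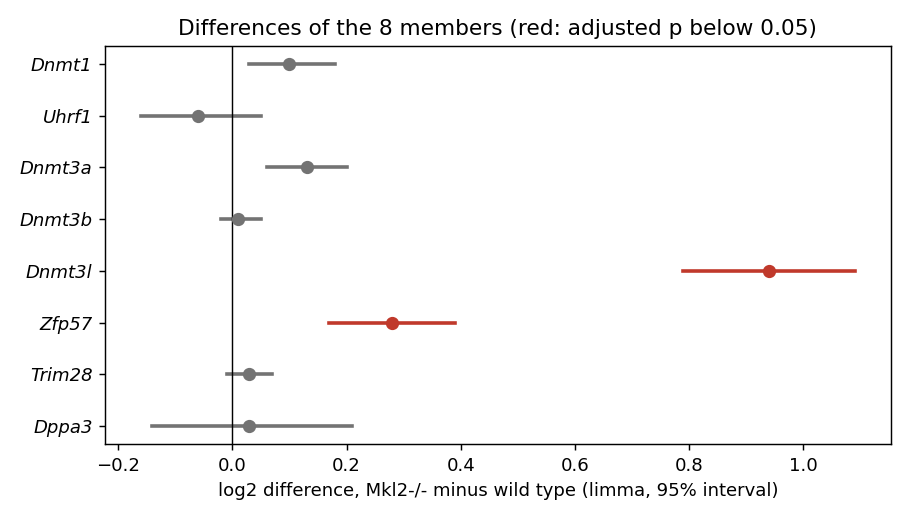
Log2 differences of the 8 genes, Mkl2-/- minus wild type, as points with 95% intervals from the limma fit (3 and 2 arrays). The genes that passed are red: Dnmt3l at 0.94 and Zfp57 at 0.28. The intervals of Dnmt1 and Dnmt3a also lie above 0 before adjustment over all genes, and those of Uhrf1, Dnmt3b, Trim28 and Dppa3 span it.

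Zfp57, the gene of the zinc finger protein that reads the methylated allele of imprinted regions, read 12.04, 11.94 and 11.96 in Mkl2-/- and 11.68 and 11.72 in wild type. The groups were at least 0.22 apart. Zfp57 rose by 0.28 ± 0.038 on the log2 scale (limma adjusted p = 0.0315), or 1.21-fold with a 95% interval of 1.13 to 1.31. It did not pass with any 1 array left out (differences of 0.25 to 0.30, adjusted p = 0.061 to 0.137), among them the fit without wild-type replicate 2 in which no gene passed. Trim28, the gene of the corepressor that ZFP57 recruits, read 12.38, 12.39 and 12.41 in Mkl2-/- and 12.37 and 12.36 in wild type. The groups did not overlap, but the gap between them was only 0.01, which is the rounding step of the deposited values. The difference of 0.03 ± 0.014 did not pass (limma adjusted p = 0.353; 95% interval 0.992-fold to 1.05-fold).

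Dppa3, known as a marker of naive stem cells and germ cells, was not above background on any array. The background level was set from 1027 olfactory receptor genes, which stem cells are not known to express, and 95% of them averaged below 7.30. Dppa3 read 6.03, 6.21 and 6.14 in Mkl2-/- and 6.12 and 6.07 in wild type, with overlapping arrays and no fold given. Its second feature read 5.91 on all 3 Mkl2-/- arrays, and 5.91 and 5.94 in wild type. RefSeq also lists a pseudogene of Dppa3, Dppa3-ps, on chromosome X, and the sources used here do not say whether either feature separates the copies. The next gene above background on chromosome 6, Nanog, was measured at 11.15, 11.00 and 10.96 in Mkl2-/- and 12.18 and 12.17 in wild type.

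Dnmt3l stood above its chromosomal neighbours. Of the 24 nearest genes above background on chromosome 10 (12 on each side), 0 had as large a rise, and their median difference was 0.05. The closest 2 on each side were all higher in Mkl2-/- with no overlap between the arrays, as were 16.9% of all genes. The phosphofructokinase gene Pfkl rose by 0.36 (limma adjusted p = 0.0118). Aire (0.21, adjusted p = 0.343), Icosl (0.28, adjusted p = 0.106) and Gatd3a (0.20, adjusted p = 0.0593) did not pass. These neighbours were named after their values were seen. Of the 24, 1 rose (Pfkl) and 1 fell, Agpat3, by 0.89 on the log2 scale. Around Zfp57 on chromosome 17 the median of 24 neighbours was 0.04; 1 of them rose, Rnf39 (0.62), and 4 fell, with Pla2g7 (-1.62) and H2-Bl (-0.57) among them. For Dnmt1, Dnmt3a, Dnmt3b, Uhrf1, Trim28 and Dppa3 the medians of the neighbours ran from -0.02 to 0.06. Dnmt3a lies near the end of chromosome 12 and had 18 such neighbours. Of all genes above background 8.78% fell, and the share was highest on chromosomes 1, X and 6. On chromosome 1, which holds none of the 8 genes, 30.3% of 758 such genes fell (median -0.17). On chromosome X, also without any of the 8, 21.0% of 409 fell (median -0.05). On chromosome 6, which holds Dppa3, 19.2% of 620 fell and 2.42% rose (median 0.00), and Nanog, Tet3, Chd4 and Mest lie there too. The part of these chromosome-wide differences in the falls of single genes was not tested.

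**Figure D3:**
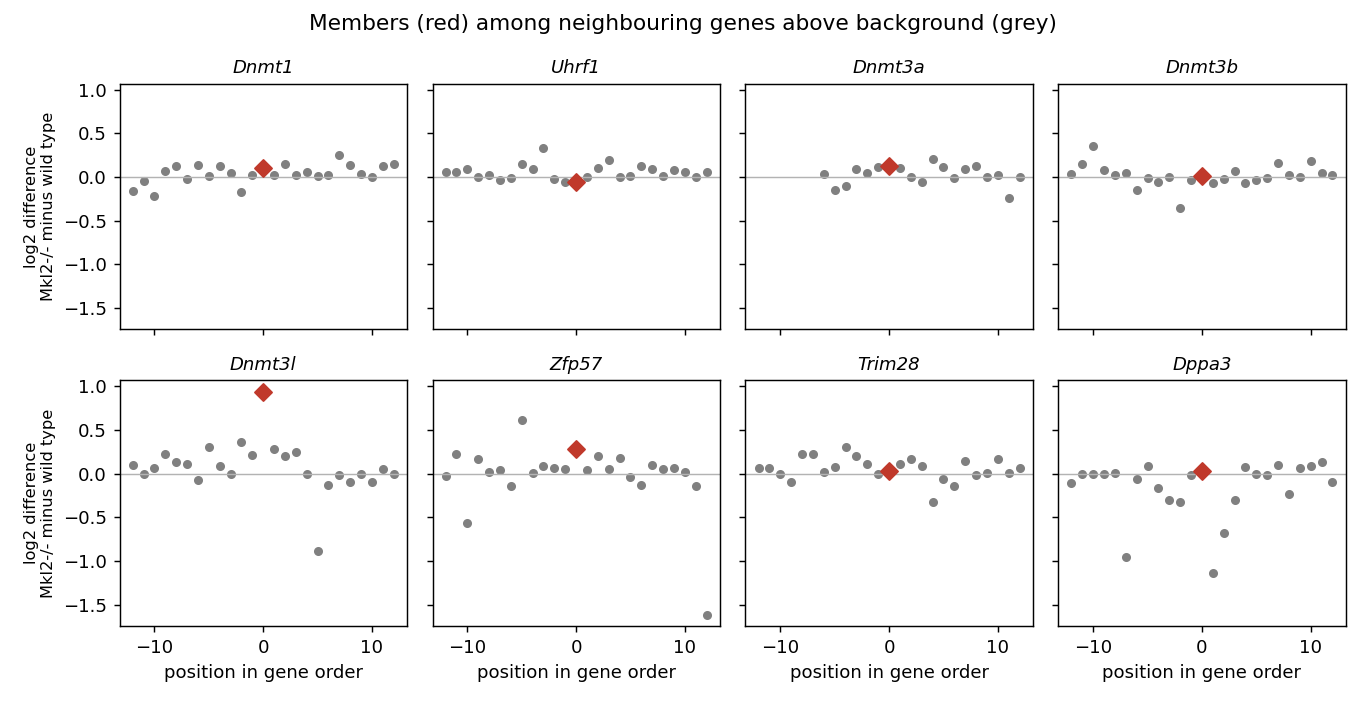
Log2 differences, Mkl2-/- minus wild type, of each of the 8 genes (red diamond at position 0) and of up to 12 neighbours above background on each side, in chromosomal order (grey). Dnmt3l at 0.94 stands above all 24 of its neighbours, the highest of which is at 0.36, Uhrf1 at -0.06 lies at the low end of its neighbours, and the remaining genes lie within the range of theirs.

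Genes that work with these 8 were counted in 6 lists (77 measured genes): 6 rose, 9 fell and 62 did not pass. That is 19.5% called, against 9.27% of all genes. Nearly all of the 77 were above background, where 4.15% of all genes rose and 8.78% fell. The median difference of the 77 was 0.00. Among 12 cofactors of maintenance methylation, Uhrf2 and Lig1 fell and 10 did not pass (list median 0.00). Uhrf2, a relative of Uhrf1, read 9.99, 9.93 and 9.89 in Mkl2-/- and 10.22 and 10.19 in wild type (-0.27 ± 0.036, limma adjusted p = 0.0302). Lig1, a replicative DNA ligase gene that also helps to recruit UHRF1, fell by 0.33 on the log2 scale (limma adjusted p = 0.0492). The remodeller gene Hells (0.16, adjusted p = 0.339) and the replication clamp gene Pcna (-0.01, adjusted p = 0.617) did not pass.

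Among 18 measured partners of TRIM28 and other genes of imprint protection, 1 rose and 3 fell (list median -0.01). That is 22.2% called, against 9.27% of all genes (of those above background, 4.15% rose and 8.78% fell). Zfp809, a zinc finger gene whose protein recruits TRIM28 to retroviral sequences, read 10.83, 10.75 and 10.73 in Mkl2-/- and 10.39 and 10.42 in wild type (0.36 ± 0.037, limma adjusted p = 0.0186). Chd3, a remodeller subunit gene, fell 1.49-fold (limma adjusted p = 0.00624), to 8.88, 8.91 and 8.93 in Mkl2-/- against 9.46 and 9.50 in wild type. Pphln1, the gene of a HUSH silencing complex subunit, fell 1.32-fold (limma adjusted p = 0.0219) and Chd4 only 1.04-fold (limma adjusted p = 0.0433). Chd4 read 11.82, 11.82 and 11.81 in Mkl2-/- and 11.88 on both wild-type arrays. Its arrays differed within a group by no more than 0.01, the rounding step, so its call rests on a very small spread. Setdb1, the gene of the histone methyltransferase that TRIM28 recruits (-0.08, adjusted p = 0.144), and Zfp445, a second imprint-binding zinc finger gene (0.09, adjusted p = 0.404), did not pass.

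Of 15 histone modifiers and other factors that guide methylation, Ehmt2 (the G9a methyltransferase gene) rose by 0.23 ± 0.03 (limma adjusted p = 0.0296) and Nsd2, an H3 lysine 36 methyltransferase gene, fell by 0.48 on the log2 scale (limma adjusted p = 0.00624). Prdm14, a repressor of the de novo enzyme genes in naive cells, read 7.68, 7.57 and 7.68 in Mkl2-/- and 8.08 and 7.74 in wild type and did not pass (-0.27, adjusted p = 0.318). Among 8 measured methyl-CpG binding genes only Mbd3 passed, higher by 0.37 ± 0.059 (limma adjusted p = 0.0453). The MBD3 protein in mammals belongs to a deacetylase complex and does not itself select methylated CpG. Of 11 measured genes of methyl donor metabolism only Gldc passed, a glycine cleavage enzyme gene that feeds the one-carbon pool (0.43 ± 0.029, limma adjusted p = 0.0101). The share called was 13.3% of the histone modifier list, 12.5% of the methyl-CpG binding genes and 9.09% of the methyl donor genes, against 9.27% of all genes.

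Genes that oxidise or remove methylcytosine changed in both directions, with 2 rises and 3 falls among 13. That is 38.5% called, against 9.27% of all genes (of those above background, 4.15% rose and 8.78% fell). Tet1, a methylcytosine dioxygenase gene, read 12.83, 12.71 and 12.69 in Mkl2-/- and 12.30 and 12.39 in wild type (0.40 ± 0.058, limma adjusted p = 0.0369). Its relative Tet3 was at 8.42, 8.58 and 8.41 in Mkl2-/- and 9.12 and 9.03 in wild type, a fall of 1.52-fold (limma adjusted p = 0.0231). Tet2 (0.47 ± 0.10, adjusted p = 0.0817) did not pass. Of the repair genes on this list, Apex1 rose 1.14-fold (limma adjusted p = 0.0204) and Parp1 fell 1.25-fold (limma adjusted p = 0.0195; it lies on chromosome 1). Gadd45b, a stress response gene also linked to demethylation, fell 1.92-fold (limma adjusted p = 0.00787).

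**Figure D4:**
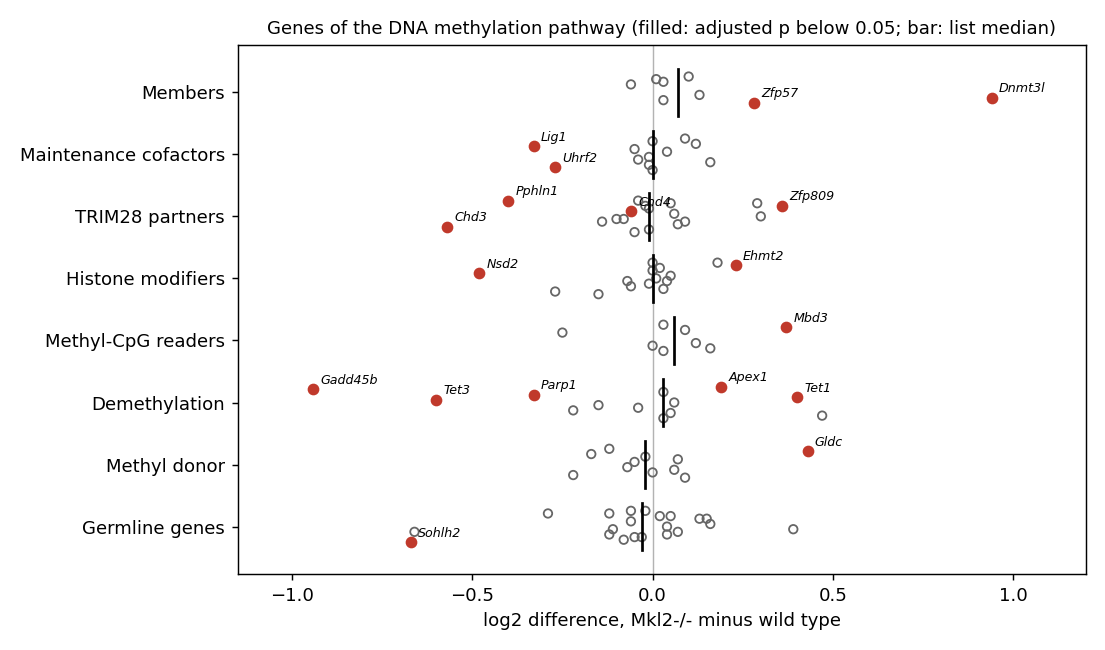
Log2 differences, Mkl2-/- minus wild type, of the 8 genes (top) and of the measured genes of 7 related lists, 1 point per gene; filled points passed limma at an adjusted p of 0.05 and black bars are list medians. Dnmt3l at 0.94 and Gadd45b at -0.94 are the outermost points, and the list medians lie between -0.03 and 0.07.

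Germline genes known to be silenced by promoter methylation in somatic cells were counted as well. Of 21 measured, 0 rose, 1 fell and 20 did not pass in the limma fit. That is 4.76% called, against 9.27% of all genes, and the list median difference was -0.03. At an unadjusted p under 0.05, 2 were higher and 3 lower. The one that fell was Sohlh2, a germ cell transcription factor gene, which was below background on all 3 Mkl2-/- arrays (6.78, 6.75 and 6.75) and at 7.46 and 7.39 in wild type, at least 1.09-fold lower (limma adjusted p = 0.00624). Dazl, a germ cell RNA-binding protein gene, read 7.17, 7.15 and 7.17 in Mkl2-/- and 7.18 and 7.39 in wild type (-0.12, adjusted p = 0.393). On this list 14 genes had means above background.

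Imprinted genes, many of which keep their parental marks through ZFP57 and TRIM28, moved in both directions. Of 19 measured paternally expressed genes 6 fell and 0 rose (9 lower and 2 higher at an unadjusted p under 0.05), among them Nnat (-4.25), Igf2 (-1.02), Plagl1 (-1.10) and Mest (-0.55), and of 15 maternally expressed genes Meg3 (1.37) and Rian (1.09), neighbours on chromosome 12, rose and Phlda2 (-0.59) and Zim1 (below background throughout) fell. The share called was 31.6% of the paternally and 26.7% of the maternally expressed genes, against 9.27% of all genes. Most genes of both lists (16 and 13) were above background, where 4.15% of all genes rose and 8.78% fell. The median of both lists was 0.00. Methylation itself was not measured on these arrays.

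The genes whose 5-array profiles lay closest to each of the 8, by root mean square difference of mean-centred log2 values, were named for likeness alone. For Dnmt3l they were Epas1 (0.0338), Ceacam1 (0.0445) and Hsd17b14 (0.0483), and only 4 of 13562 compared genes lay within 0.05 of it. For Zfp57 they were Dmac1, Vps36 and BC031181, with 169 genes that close. Profiles like those of the other genes were common. Within 0.05 of Dnmt3a lay 1844 genes (Cox4i2, Mrm1 and Smim11 closest), of Dnmt1 2311 (Fam161a, Wdr82, Angptl4), of Uhrf1 2706 (2310022B05Rik, Cdk8, Dhx32), of Trim28 5189 (AI507597, Cct6a, Tab1) and of Dnmt3b 5270 (Colgalt1, Csnk2a1, Icam5). Dppa3, below background, was nearest to Eif3l, Dyrk3 and Dctn5. With 5 arrays in 2 groups, this measure mostly compares the difference between genotypes.

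Markers of cell types were counted in lists that were chosen with earlier results of these data known, so they describe the cells and do not test their identity. In the limma fit 4 of 14 stem cell, 4 of 21 fibroblast and 10 of 20 primitive endoderm markers passed. For comparison, 9.27% of all genes passed, and of those above background 4.15% rose and 8.78% fell. Stem cell markers were above background in both genotypes (14 of 14), with Pou5f1 (0.03) and Sox2 (0.07) not past the test, Dppa4, Dppa5a and Utf1 higher and Nanog lower (-1.14). The mean of 21 measured fibroblast markers was 8.12 to 8.17 in Mkl2-/- and 8.29 and 8.30 in wild type; 1 rose (Twist1, 0.31), 3 fell (Igfbp4, -0.99; Mmp2, -0.26; Pdgfrb, -0.28), Col1a1 (-0.29) and Col1a2 (-0.08) did not pass, and Lum, Postn and Ccdc80 were below background on every array. Of 20 primitive endoderm markers 7 were higher, among them Gata4 (0.93), Gata6 (0.94) and Lama1 (1.45). Srgn (at least 24.7-fold) and Cubn (at least 4.02-fold), both below background in wild type, rose most. Lower were Lrp2 (-0.57), Fst (-0.62) and Sparc (-0.24). The other 10 did not pass, Foxa2 (0.00), Hnf4a (0.05) and Sox17 (0.33) among them, and Afp and Ttr were below background on every array. The list averaged 9.01 to 9.18 in Mkl2-/- and 8.45 to 8.51 in wild type. Its median difference was only 0.21, and the shift of the mean came largely from Srgn and Cubn. The fibroblast and endoderm means thus moved with genotype, as Dnmt3l and Zfp57 did, and their part in those rises was not tested. In bulk RNA, more cells of a type and more RNA per cell cannot be told apart. With the fibroblast mean as a covariate the Dnmt3l difference was 0.93 and that of Zfp57 0.59, neither past the test (adjusted p = 0.831 and 0.758), in a fit where 0 genes passed and 1172 had an unadjusted p under 0.05. The targeted gene Mrtfb was lower in Mkl2-/- (9.32, 9.32 and 9.09) than in wild type (9.80 and 9.75), limma adjusted p = 0.048, a difference of -0.53 for the brightest of its 3 features. The other 2 features of Mrtfb differed by -0.83 and -0.98 (limma adjusted p = 0.0205 and 0.0309 over all features, where the brightest had 0.067). The sources used here do not say where these features lie relative to the change in the mutant allele.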

How the data were processed

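Per the submitters' processing notes, the authors made the deposited log2 intensities with Affymetrix Expression Console 1.1 and RMA. This method subtracts background, quantile-normalizes and summarises probes. The values are rounded to 2 decimals, and array medians were 7.94 to 7.98. Of 35556 features, 21789 had 1 symbol in the platform annotation, 1621 several and 12146 none. Entrez identifiers matched 21698 of them to RefSeq (GRCm38.p6). The number of arrays limits the precision.

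Groups were compared with lmFit and eBayes (limma 3.58.1, R 4.3.3; 3 residual and 0.885 prior degrees of freedom), two-sided. Within both groups, 776 genes had no spread at all. The fit was checked on simulated data. The genes and lists were chosen with earlier results of these data known. Of 214 listed symbols 195 were measured. Named were the 8 genes, Mrtfb, up to 4 called genes per list with the smallest p, some genes fixed by name (such as Tet1, Tet2, Prdm14 and Dazl), and the 3 closest profiles per gene. Neighbours, Pcna, Dnmt3aos and the other genes named in passing were chosen after their values were seen. The 16 alternatives cover normalization, filters, variance model, features, covariates and arrays left out. Figures were drawn with matplotlib 3.10.9.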

Additional observations from a re-analysis of the deposited data

How the results depend on the processing

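Dnmt3l and Zfp57 were higher in Mkl2-/- under all 16 alternatives, and both passed under quantile normalization, cyclic loess, both filters on dim genes, array weights, eBayes with trend and robust, averaged features per gene and the test of all features. Without moderation 1 of the 8 genes passed (Dnmt3l; Zfp57 kept 0.28 with adjusted p = 0.101). With single arrays left out, 0 to 1 of the 8 passed, the Dnmt3l difference was 0.91 to 0.98 (adjusted p = 0.0276 to 0.0689) and that of Zfp57 0.25 to 0.30. The count of genes called in the other 12 lists was 44, fell to 14 without moderation, and was 0 to 16 with single arrays left out. Over all genes (596 higher, 1252 lower), the counts were 1254 higher after quantile normalization, 970 higher and 1979 lower after cyclic loess, 70 higher and 228 lower without moderation, and 0 to 474 higher and 0 to 490 lower with single arrays left out. Without wild-type replicate 2 limma called 0 genes (smallest adjusted p = 0.0583), with 4411 at an unadjusted p under 0.05. Fits with fewer arrays have fewer degrees of freedom.

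The titles number the samples within each genotype and do not say whether equal numbers mark paired cultures. Deviations from the group means correlated at -0.201 for number 1 and 0.191 for number 2. The deviations of 2 wild-type arrays mirror each other, so these correlations cannot decide on pairing. A fit with the replicate number as a block has few residual degrees of freedom, and Mkl2-/- replicate 3 has no wild-type array of its number. With the replicate block limma called 0 genes higher and 0 lower (3827 at an unadjusted p under 0.05), 0 of the 8 and 0 in the other lists, and Dnmt3l differed by 0.98 (adjusted p = 0.161) and Zfp57 by 0.29 (adjusted p = 0.259). With the fibroblast marker mean as a covariate, which itself differs between the genotypes, 0 genes passed (1172 at an unadjusted p under 0.05), 0 of the 8 among them, and Dnmt3l differed by 0.93 and Zfp57 by 0.59. Dppa3, below background, changed sign under cyclic loess (-0.0009), array weights (-0.003), the fibroblast covariate (-0.52) and without Mkl2-/- replicate 2 (-0.01; up to 0.08 without Mkl2-/- replicate 1); the cause was not tested. The signs of Dnmt1, Dnmt3a, Dnmt3b, Uhrf1 and Trim28 held under all 16 alternatives, and Dnmt3a passed only with a filter on dim genes, where fewer genes are tested.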
